A study of Mus musculus with 70 samples.

Results

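Cell proliferation genes were measured as a group of 40 genes in leukocytes sorted from the blood of mice after chronic social defeat stress (CSDS), in which a mouse is repeatedly subordinated by an aggressive CD-1 mouse. They are 40 genes with known roles in DNA replication and mitosis, and all 40 were found among the 52636 genes of the table. The groups were unstressed mice (CON) and mice that had 10 days of CSDS and were then called susceptible (SUS) or resilient (RES) from their approach to another mouse in a social interaction test. The sorted cells were T cells, B cells and monocytes high (Ly6Chigh) or low (Ly6Clow) in Ly6C, gated with antibodies to CD11b, Ly6C, Ly6G, B220 and CD90.2. The study used C57BL/6J mice in its standard CSDS experiments, and the sample labels give no strain, age, sex or mouse. The labels name brain as the source, whereas the series design and the methods of the study describe blood. No engineered allele and no drug is named for any group. A group held 6 libraries, except for 4 CON libraries of Ly6Clow monocytes and 5 RES libraries of B cells and of T cells.

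Libraries 52 and 70 were left out. Library 52, labelled B cells of RES mice, held 5.76 CPM (read counts scaled to library size) of the B cell gene Cd79a and 412.4 CPM of the T cell gene Cd3e. Library 70, labelled T cells of RES mice, held 1417 CPM of Cd79a and 0.143 CPM of Cd3e. In the other 68 libraries, the genes that define the sorted cell were present. The summed level of 5 T cell genes was between 1388 and 1967 CPM in T cells and at most 13.3 CPM in the other cell types, and that of 5 B cell genes was between 4145 and 5335 CPM in B cells and at most 34.2 CPM elsewhere. Total counts ranged from 19769835 to 67038231, so that 1 CPM stood for about 20 reads or more.

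A dividing cell first licenses its replication origins by loading the Mcm helicase with Cdc6, then copies its DNA with Pcna at the fork and with nucleotides from ribonucleotide reductase (Rrm1, Rrm2), Tyms and Tk1. Entry into mitosis is driven by Cdk1 with cyclins A and B, under Foxm1, a transcription factor of late cell cycle genes. The chromosomes are then condensed and aligned by topoisomerase Top2a, kinesins and centromere proteins, monitored by checkpoint kinases, and released by the anaphase-promoting complex (APC/C). Mki67 encodes the Ki-67 protein that coats mitotic chromosomes and is the usual label of cycling cells. Most leukocytes in blood are at rest. Resting cells retain some Mcm and Pcna RNA, while mitotic genes are expressed mainly late in the cycle.

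Late cell cycle promoters commonly carry CCAAT boxes, bound by NF-Y, and a cell cycle homology region, bound by the DREAM and MuvB complexes, while promoters of replication genes often carry E2F sites. RefSeq promoters (GRCm38.p6) were available for 31 of the 40 genes. The 150 bases before each annotated start were searched on both strands for CCAAT, for TTTGAA or TTTAAA, and for TTTGGCGC, TTTCCCGC, TTTCGCGC or TTTGCCGC as E2F sites. CCAAT was found in 23 of the 31 promoters (74.2%) and in 25.3% of the promoters of 27025 genes. A cell cycle homology region was found in 12 (38.7%, against 14.9%), and an E2F site in 4 (12.9%, against 1.26%). The sequences below are those of the 4 genes with the smallest p between SUS and CON mice in T cells and of Mcm5, the gene called in Ly6Chigh monocytes. They are written 5' to 3' toward the gene, with the matches in capitals.

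Rrm2, chr12:24708104-24708253, plus strand: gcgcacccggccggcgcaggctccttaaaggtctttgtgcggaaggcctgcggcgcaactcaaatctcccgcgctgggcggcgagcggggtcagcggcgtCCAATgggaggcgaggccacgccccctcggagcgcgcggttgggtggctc
Cdca8, chr4:124936918-124937067, minus strand: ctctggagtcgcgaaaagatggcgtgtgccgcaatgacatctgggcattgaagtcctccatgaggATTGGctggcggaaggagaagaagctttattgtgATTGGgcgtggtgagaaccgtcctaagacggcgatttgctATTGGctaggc
Top2a, chr11:99024190-99024339, minus strand: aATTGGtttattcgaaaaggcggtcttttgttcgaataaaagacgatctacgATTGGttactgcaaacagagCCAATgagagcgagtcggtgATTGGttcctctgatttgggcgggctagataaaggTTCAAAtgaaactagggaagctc
Mki67, chr7:135716380-135716529, minus strand: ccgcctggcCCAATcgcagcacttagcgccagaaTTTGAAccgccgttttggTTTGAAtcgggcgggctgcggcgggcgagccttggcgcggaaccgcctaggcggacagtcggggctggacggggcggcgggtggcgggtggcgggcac
Mcm5, chr8:75109359-75109508, plus strand: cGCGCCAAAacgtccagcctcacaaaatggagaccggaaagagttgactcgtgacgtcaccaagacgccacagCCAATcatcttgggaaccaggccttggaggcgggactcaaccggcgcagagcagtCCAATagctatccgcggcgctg

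Rrm2 held a single CCAAT and none of the other words. Cdca8 held 3 CCAAT boxes, all on the opposite strand (ATTGG). Top2a held 4 CCAAT boxes and a cell cycle homology region that began 23 bases before the start. Mki67 held 1 CCAAT box and a pair of TTTGAA words. Mcm5 held 2 CCAAT boxes and an E2F site, and no cell cycle homology region. The matches describe these letters only.

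In T cells, most of the proliferation genes had a positive log2 fold change in stressed mice, and 1 was called. Between SUS and CON mice, 39 of 40 had a positive log2 fold change, with a median of 1.20 over the 40 genes and -0.0034 over all 18860 genes tested. By edgeR's quasi-likelihood test, 23 of the 40 were higher at an unadjusted p under 0.05 and 0 were lower, while 2.76% of all genes were higher and 2.05% lower at that p. After Benjamini-Hochberg adjustment over all genes, only Rrm2 passed both thresholds (adjusted p under 0.05 and absolute log2 fold change above 1), beside 0.0265% of all genes. DESeq2 called 5 of the 40, beside 0.237% of all genes to which it gave a p. In bulk RNA, more cycling cells among T cells and more RNA of these genes in each cell cannot be told apart.

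The mean log2 level of the 40 genes, log2(CPM + 0.5), summarised each library. In T cells of CON mice it was 2.29, 2.39, 2.63, 2.03, 2.38 and 2.72 (mean 2.41, SD 0.25, n = 6). In SUS mice it was 2.99, 2.74, 2.64, 3.91, 4.05 and 3.04 (mean 3.23, SD 0.60, n = 6), and in RES mice 3.03, 3.05, 3.41, 3.33 and 2.97 (mean 3.15, SD 0.20, n = 5). Every RES library lay above every CON library, whereas 1 SUS library, replicate 3 at 2.64, lay below the highest CON library. SUS replicates 4 and 5, libraries 63 and 66, stood above all others. No test is given for this mean because the genes were chosen with results known.

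**Figure D1:**
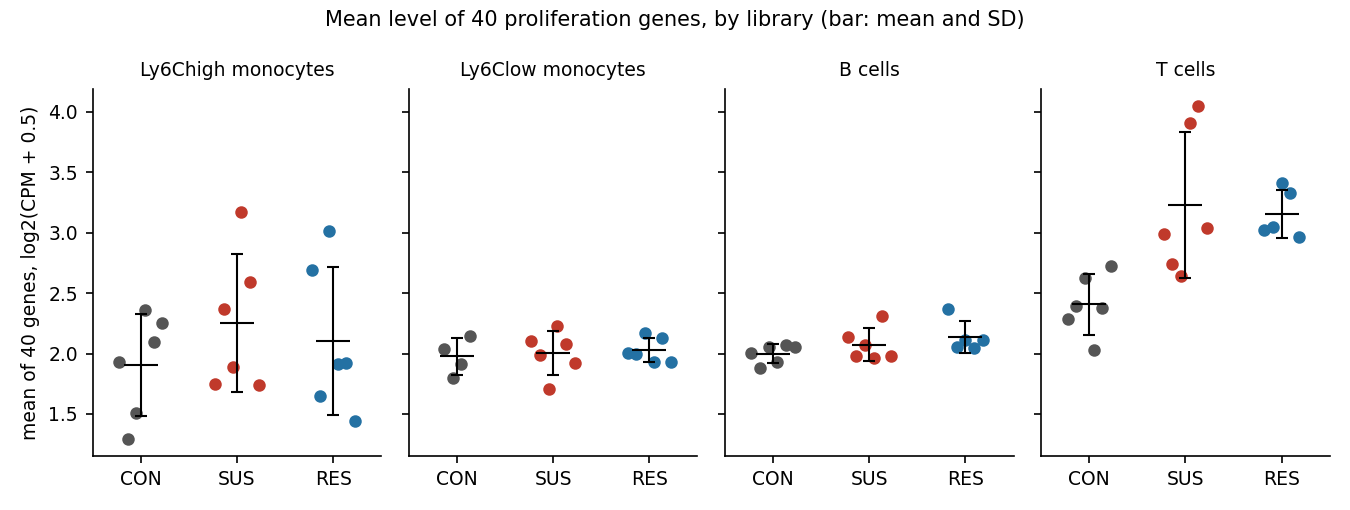
Mean level of the 40 proliferation genes, log2(CPM + 0.5), in each of 68 libraries (points) by cell type and group, with the mean and SD of each group (bars). In T cells the SUS and RES means (3.23 and 3.15) lie above the CON mean (2.41), RES and CON libraries do not overlap, and 1 SUS library lies below the highest CON library. In the other 3 cell types the groups overlap.

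The differences in T cells were unequal among the roles. The 10 genes of replication licensing and the fork had a median log2 fold change of 0.27 between SUS and CON mice, with 3 of 10 higher at an unadjusted p under 0.05. The 4 nucleotide synthesis genes had a median of 0.55 (2 of 4), and the 7 cyclins, Cdk1 and Foxm1 a median of 0.88 (3 of 7). The 9 mitotic kinases, checkpoint and APC/C genes had a median of 1.36 (7 of 9), and the 10 spindle, kinetochore and chromosome genes 1.52 (8 of 10). The difference between the roles was not tested.

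**Figure D2:**
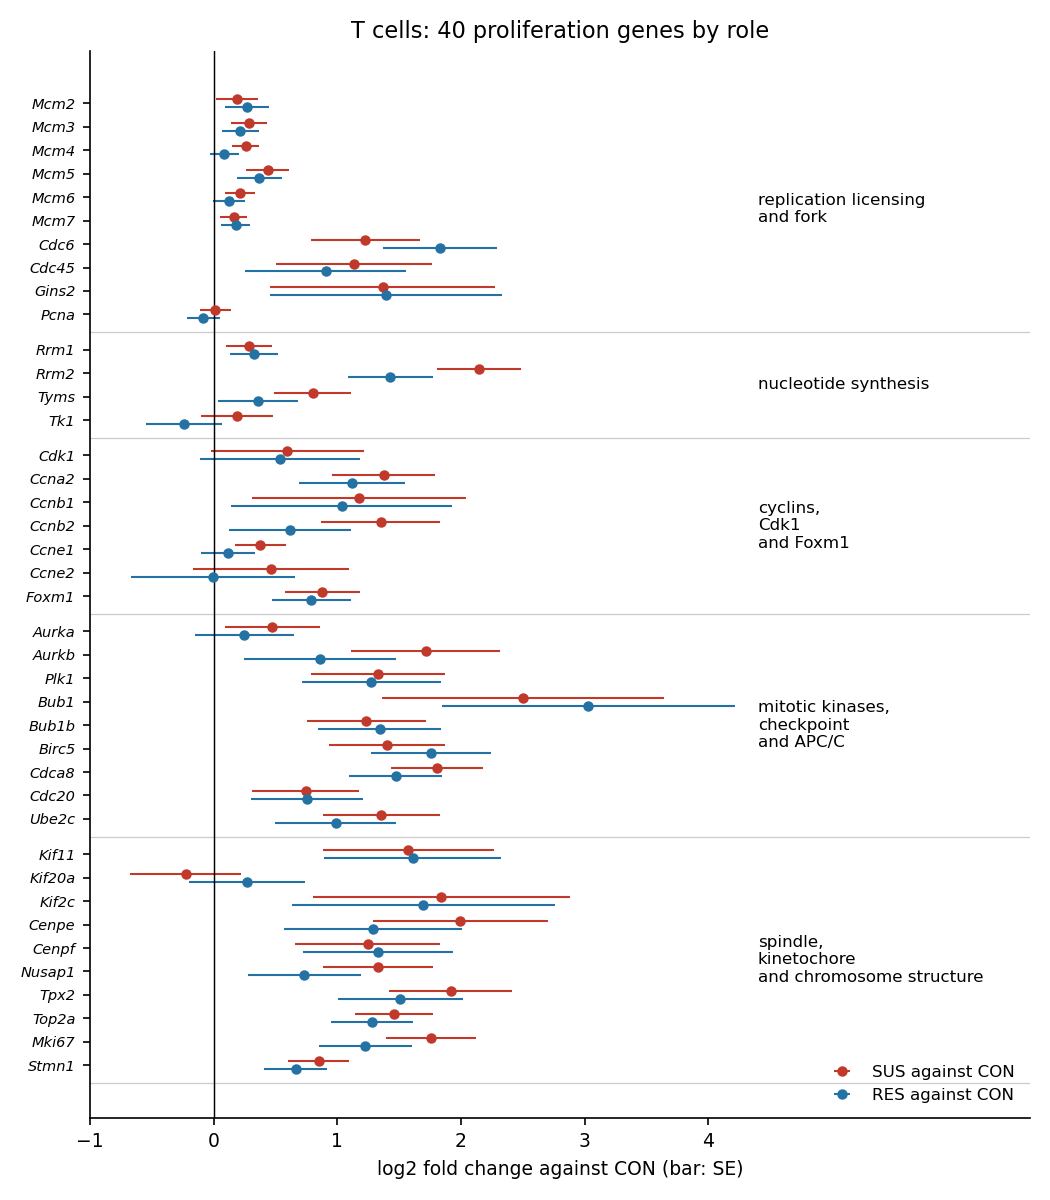
Log2 fold change of each of the 40 genes in T cells, SUS against CON (red) and RES against CON (blue), with the standard error of the edgeR fit, grouped by role. Pcna lies near 0 and Mcm5 at 0.44 (SE 0.17) in SUS mice, while Rrm2 lies at 2.15 in SUS and 1.43 in RES mice.

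Rrm2, the regulated subunit of ribonucleotide reductase, was the gene with the smallest p. It stood at 2.16, 5.36, 4.16, 2.87, 2.80 and 4.24 CPM in CON, at 11.6, 8.66, 7.82, 30.6, 27.7 and 10.1 CPM in SUS and at 9.96, 7.92, 7.31, 16.3 and 6.98 CPM in RES mice. Every SUS and every RES library was above every CON library. It rose by 2.15 on the log2 scale in SUS mice (SE 0.34, edgeR adjusted p = 0.00338). In RES mice the log2 fold change was 1.43 (SE 0.34, adjusted p = 0.562). Its partner Rrm1, the large subunit of the same enzyme, had a log2 fold change of 0.29 (SE 0.19) in SUS mice.

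Mki67 stood at 20.9, 31.2, 27.3, 25.4, 25.4 and 45.8 CPM in CON, at 71.9, 40.3, 41.2, 122, 231 and 94.4 CPM in SUS and at 66.4, 65.0, 67.1, 76.2 and 68.6 CPM in RES mice. All RES libraries were above all CON libraries, and 2 SUS libraries were below the highest CON library. The log2 fold change was 1.76 in SUS mice (SE 0.37, edgeR adjusted p = 0.165) and 1.23 in RES mice (SE 0.37, adjusted p = 0.829). Over 10 other settings by edgeR or DESeq2, the adjusted p in SUS mice ranged from 0.0013 to 0.978.

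Top2a, which untangles replicated chromosomes, stood at 14.1, 14.8, 12.6, 12.5, 13.2 and 23.1 CPM in CON, at 32.8, 17.3, 20.0, 59.5, 85.2 and 35.1 CPM in SUS and at 36.8, 28.3, 36.8, 45.5 and 35.1 CPM in RES mice. RES and CON mice did not overlap, and SUS and CON mice did. The log2 fold change was 1.46 in SUS mice (SE 0.32, edgeR adjusted p = 0.165) and 1.28 in RES mice (SE 0.33, adjusted p = 0.633). Over 10 other settings by edgeR or DESeq2, the adjusted p in SUS mice ranged from 0.00081 to 0.9999.

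Cdca8, a subunit of the chromosomal passenger complex, stood between 0.826 and 2.76 CPM (median 1.44) in CON, between 3.15 and 7.83 CPM (median 5.61) in SUS and at 4.24, 4.57, 4.75, 4.75 and 3.31 CPM in RES mice. Neither stressed group overlapped CON mice. The adjusted p-values of the main edgeR fit, 0.0564 and 0.595, missed the threshold at log2 fold changes of 1.81 (SE 0.37) and 1.47 (SE 0.38). They depended on the setting. Over 10 other settings by edgeR or DESeq2, they ranged from 9.47e-05 to 0.955 in SUS mice and from 0.027 to 0.9999 in RES mice. Birc5, the survivin subunit of the same complex, stood between 0.603 and 5.27 CPM (median 1.41) in CON, between 1.83 and 10.3 CPM (median 4.15) in SUS and between 3.71 and 9.06 CPM in RES mice, so that the groups overlapped. Ccnb2, a B-type cyclin, ranged from 0.971 to 5.80 CPM in CON and from 2.03 to 16.7 CPM in SUS mice and overlapped widely.

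Stmn1, the microtubule-destabilising protein stathmin, ranged from 7.56 to 15.0 CPM in CON, from 11.7 to 28.9 CPM in SUS and from 11.4 to 26.7 CPM in RES mice. Mcm5, a subunit of the replicative helicase, ranged from 25.4 to 38.6 CPM in CON, from 30.2 to 69.9 CPM in SUS and from 35.6 to 56.7 CPM in RES mice. Pcna, the sliding clamp, ranged from 45.2 to 74.4 CPM in CON and from 50.4 to 76.7 CPM in SUS mice, with a log2 fold change of 0.01 (SE 0.12). All of these overlapped between the groups.

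**Figure D3:**
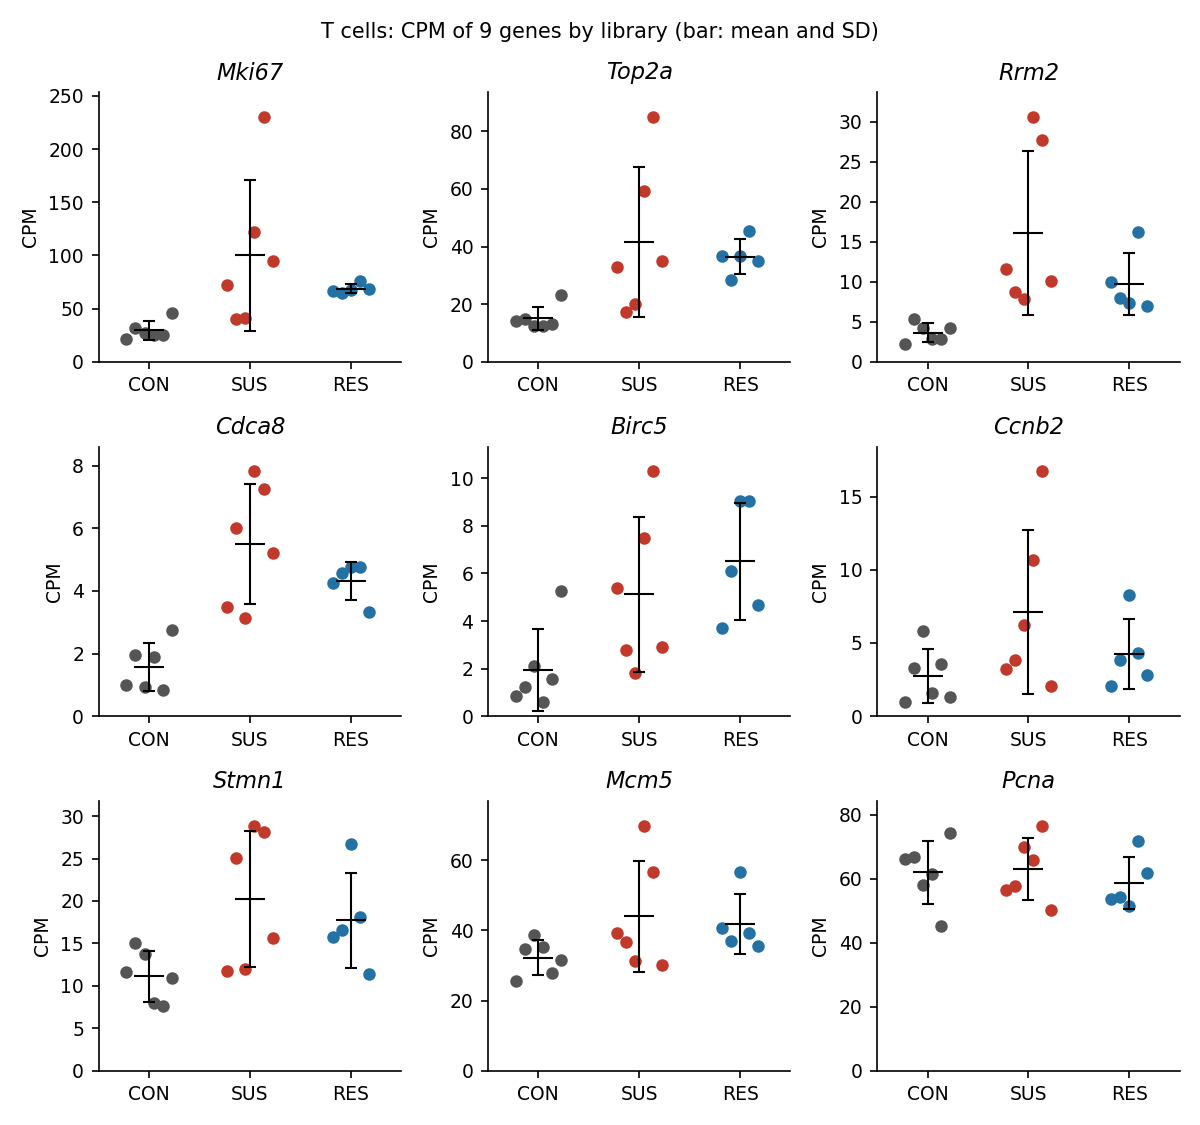
CPM of 9 proliferation genes in each T cell library (points) of CON (n = 6), SUS (n = 6) and RES (n = 5) mice, with the mean and SD (bars). Rrm2 and Cdca8 show no overlap between CON and either stressed group, whereas Pcna overlaps fully.

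Between RES and CON mice, 37 of 40 genes had a positive log2 fold change in T cells (median 0.82, against 0.0048 over all genes), and 15 were higher and 0 lower at an unadjusted p under 0.05 (2.4% of all genes were higher). edgeR called 0 of 40 (0% of all genes), and DESeq2 called 3 (0.0551% of all genes). The 3 with the smallest p were Rrm2, Cdc6 and Cdca8. Cdc6, the helicase loader, had a log2 fold change of 1.83 (SE 0.46, adjusted p = 0.595). Every RES library was above every CON library for 6 genes, Rrm2, Cdc6, Cdca8, Top2a, Mki67 and Foxm1, beside 0.382% of all genes. Foxm1 is named because of this count and was chosen after its value was seen. For SUS mice, the same held for 2 genes, Rrm2 and Cdca8, beside 0.201% of all genes. The SUS and RES contrasts share the CON libraries. Between SUS and RES mice themselves, edgeR and DESeq2 called 0 of 40 (0% and 0.0162% of all genes), 1 gene, Rrm2, was higher at an unadjusted p under 0.05, beside 1.22% of all genes (log2 fold change 0.72, SE 0.34), and the median log2 fold change was 0.14. Mcm4 and Ccnb2 were next by p (0.17, SE 0.11, and 0.74, SE 0.50). Without SUS replicates 4 and 5 the median turned to -0.20, with 8 of 40 positive.

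Other cell cycle genes, in lists chosen with earlier results of these data known, were counted in the same T cell fit. Of 50 other mitotic genes, 48 had a positive log2 fold change in SUS mice (median 0.73). At an unadjusted p under 0.05, 15 were higher and 1 lower, beside 2.76% of all genes higher and 2.05% lower. Of these 50, 0 were called, beside 0.0265% of all genes. Ncapg2, a condensin subunit, had a log2 fold change of 1.54 (SE 0.42, adjusted p = 0.282), and Ccnf, an F-box cyclin, one of 1.80 (SE 0.51, adjusted p = 0.315). Of 34 other replication genes, 25 were positive (median 0.15), with 6 higher and 0 lower at an unadjusted p under 0.05 and 0 called. The shares of all genes are the same as for the mitotic genes. Of 20 tested transcription regulators of the cell cycle, 13 were positive (median 0.02). E2f2, an activator E2F, had a log2 fold change of 0.89 (SE 0.16, adjusted p = 0.0262), which passed the adjusted p and not the fold threshold. All 12 genes linked to quiescence had a negative log2 fold change in SUS mice (median -0.18), 4 of them at an unadjusted p under 0.05, beside the 2.05% of all genes that were lower at that p, and 0 called. Pdcd4, a translation inhibitor, had the smallest p of these, with a log2 fold change of -0.25 (SE 0.08, adjusted p = 0.533). In RES mice the 12 were negative again (median -0.12), with 0 at an unadjusted p under 0.05.

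Marker genes of some other cells were set beside the T cell result. Those of NK cells, plasma cells, neutrophils, platelets, early progenitors and Ly6Chigh monocytes are not given here. The 6 red cell genes summed to between 888 and 2834 CPM in CON, between 1644 and 4496 CPM in SUS and between 1683 and 4645 CPM in RES mice, and all 6 had a positive log2 fold change in SUS mice. With their mean as a covariate, 37 of 40 proliferation genes were still positive in SUS mice, 11 were higher at an unadjusted p under 0.05, and 0 were called (Rrm2 log2 fold change 2.06, adjusted p = 0.144). The 6 granule progenitor genes summed to at most 0.624 CPM in any T cell library. The 5 B cell genes summed to between 7.84 and 18.5 CPM, and the 5 T cell genes had a median log2 fold change of -0.04. The mean log2 level of 5 Ly6Clow monocyte genes was between 4.08 and 4.92 in the libraries numbered up to 59 and between 2.11 and 2.87 in those from 60. Among libraries up to 59, the mean level of the proliferation genes was 2.29 to 2.63 in CON (n = 3), 2.74 to 2.99 in SUS (n = 2) and 3.03 to 3.05 in RES mice (n = 2). From 60 it was 2.03 to 2.72 in CON (n = 3), 2.64 to 4.05 in SUS (n = 4) and 2.97 to 3.41 in RES mice (n = 3).

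SUS replicates 4 and 5 contributed much of the SUS difference. Without both, 33 of 40 genes were positive, the median log2 fold change was 0.52, 7 were higher at an unadjusted p under 0.05, and Rrm2 was no longer called (log2 fold change 1.40, adjusted p = 0.146). Without replicate 5 alone, 14 were higher at that p, in place of 23.

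In Ly6Chigh monocytes, the proliferation genes varied more between libraries of a group than between groups. The mean log2 level ranged from 1.29 to 2.36 in CON (median 2.01, SD 0.42, n = 6), from 1.74 to 3.17 in SUS (median 2.13, SD 0.57, n = 6) and from 1.44 to 3.01 in RES mice (median 1.92, SD 0.61, n = 6). Between SUS and CON mice, 28 of 40 genes had a positive log2 fold change (median 0.43, against -0.05 over 16955 genes), 4 were higher and 1 lower at an unadjusted p under 0.05, beside 15.9% of all genes higher and 10.7% lower. edgeR called 1 of 40, beside 3.45% of all genes, and DESeq2 called 2, beside 2.98%. No gene of the 40 had every SUS library above every CON library, beside 4.68% of all genes.

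The gene called was Mcm5. It stood at 2.94, 4.33, 6.17, 8.36, 9.11 and 10.8 CPM in CON, at 12.8, 12.1, 14.7, 20.9, 36.8 and 9.19 CPM in SUS and at 10.7, 8.35, 22.2, 15.1, 10.5 and 16.5 CPM in RES mice. SUS replicate 5, library 14, was the highest, and 1 SUS library lay within the CON range. Mcm5 rose by 1.33 on the log2 scale in SUS mice (SE 0.35, adjusted p = 0.0139), and the log2 fold change was 0.99 in RES mice (SE 0.35, adjusted p = 0.0945). Without SUS replicate 5 the log2 fold change was 0.93 with an adjusted p of 0.0631. Bub1b, the checkpoint kinase BubR1, passed the adjusted p and not the fold threshold in SUS mice (log2 fold change 0.77, SE 0.21, adjusted p = 0.0181) and in RES mice (0.71, SE 0.21, adjusted p = 0.0496).

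The other genes overlapped between groups in Ly6Chigh monocytes. Mki67 ranged from 32.6 to 85.5 CPM in CON, from 20.7 to 97.0 CPM in SUS and from 13.7 to 77.5 CPM in RES mice, and Top2a from 2.00 to 34.2, from 5.26 to 34.1 and from 3.31 to 38.3 CPM. Rrm2 ranged from 0.468 to 8.73 CPM in CON and from 0.025 to 11.8 CPM in SUS mice. Birc5 stood at or below 7.67 CPM, Ccnb2 at or below 6.66 CPM and Stmn1 at or below 15.8 CPM in all 18 libraries. Pcna was steadier, between 34.3 and 64.8 CPM. Between RES and CON mice, edgeR and DESeq2 called 0 of 40 (0.997% and 1.89% of all genes), with 27 positive, 3 higher and 0 lower at an unadjusted p under 0.05, beside 12.7% of all genes higher. Bub1b, Mcm3 and Mcm5 had the smallest p, and every RES library was above every CON library for Bub1b alone, beside 2.85% of all genes. Between SUS and RES mice, both tools called 0 of 40 (0% of all genes by edgeR and 0.0743% by DESeq2), with 0 at an unadjusted p under 0.05. Ube2c, Mcm7 and Tk1 had the smallest p, from 0.138 to 0.223 before adjustment.

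Genes of granule progenitors, the bone marrow precursors that make Elane, Prtn3 and Mpo, were set beside the proliferation genes in Ly6Chigh monocytes. The 6 genes summed to between 4.66 and 44.2 CPM in CON, between 15.8 and 187 CPM in SUS and between 27.8 and 108 CPM in RES mice. The highest library by the proliferation genes, SUS replicate 4 at 3.17, also held the highest sum, 187 CPM. The lowest, CON replicate 2 at 1.29, held the lowest sum, 4.66 CPM. An association over all libraries of these cells was not tested. In SUS mice, Prtn3 rose by 3.54 on the log2 scale (SE 0.43, adjusted p = 0.000166). With the granule progenitor mean as a covariate, the median log2 fold change of the 40 genes was -0.31 in SUS and -0.22 in RES mice, and Mcm5 was not called (log2 fold change 0.84, adjusted p = 0.1). The 6 red cell genes summed to between 343 and 1215 CPM in CON, between 1097 and 8984 CPM in SUS and between 1077 and 4348 CPM in RES mice. With them as a covariate, Mcm5 had a log2 fold change of 0.49 (edgeR adjusted p = 0.912). That fit called 2 of all genes tested, beside 585 in the main fit. The red cell sums of CON mice barely overlapped those of either stressed group, and the granule progenitor sums also reached higher in stressed mice. A fit with either covariate therefore cannot separate these cells from the group. The part of these cells in the Mcm5 result was not tested.

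**Figure D4:**
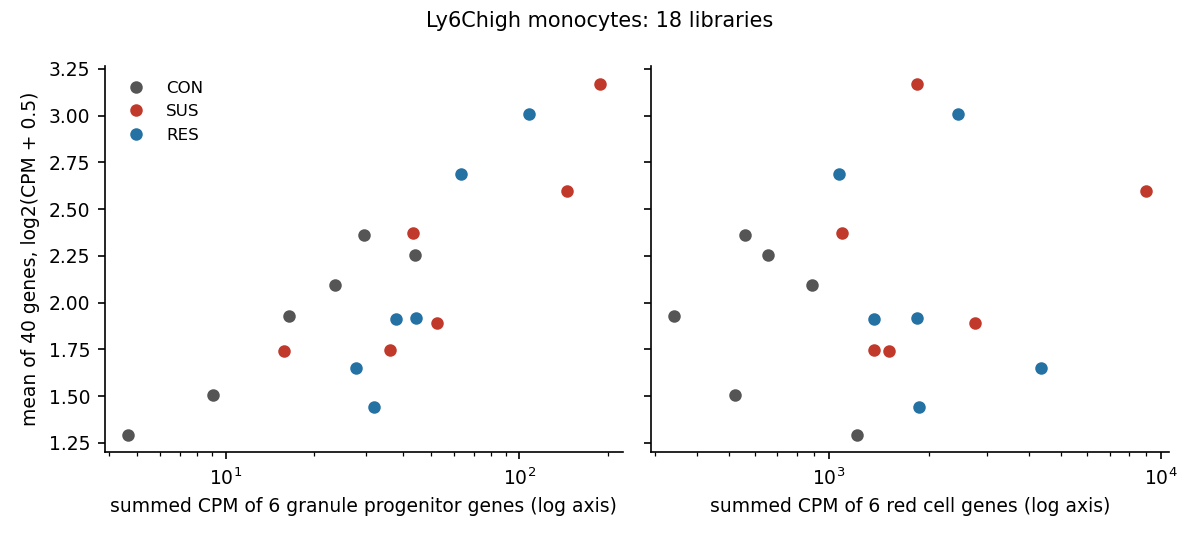
Mean level of the 40 proliferation genes, log2(CPM + 0.5), against the summed CPM of 6 granule progenitor genes (left) and 6 red cell genes (right), both on log axes, in 18 Ly6Chigh monocyte libraries coloured by group. The library at 187 CPM of granule progenitor genes has the highest mean (3.17) and the library at 4.66 CPM the lowest (1.29).

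In Ly6Clow monocytes, 39 of the 40 genes passed the filter on low counts, Kif2c being left out. The mean log2 level was 1.80 to 2.15 in CON (n = 4), 1.71 to 2.23 in SUS (n = 6) and 1.93 to 2.17 in RES mice (n = 6). Between SUS and CON mice, edgeR called 0 (0.0871% of all genes), 0 were higher (5.32% of all genes) and 3 lower (4.19%) at an unadjusted p under 0.05, and DESeq2 called 1 (0.35%). Tk1, Mcm3 and Tpx2 had the smallest p, with log2 fold changes of -0.48 (SE 0.19), -0.30 (SE 0.12) and -1.17 (SE 0.50) and adjusted p-values from 0.391 to 0.431. Between RES and CON mice, edgeR and DESeq2 called 0 (0.0154% and 0.105% of all genes), with 0 higher (5.61% of all genes) and 1 lower, Tk1, at that p (4.06%). Tk1, Mcm5 and Tpx2 had the smallest p. Between SUS and RES mice, both tools called 0 (0% of all genes by edgeR and 0.0204% by DESeq2), with 1 higher (1.8%) and 0 lower at that p. Mki67, Mcm3 and Aurka had the smallest p, and Mki67 had a log2 fold change of 0.34 (SE 0.13). Mki67 stood at 53.0 to 73.7 CPM in CON, 54.7 to 77.1 CPM in SUS and 36.7 to 72.3 CPM in RES mice, while Top2a ranged from 3.73 to 21.9 CPM and Rrm2 from 0 to 4.51 CPM over the 16 libraries. Mcm5 ranged from 23.2 to 33.1 CPM, Pcna from 37.2 to 69.7 CPM, Stmn1 from 1.28 to 6.58 CPM, Ccnb2 from 0 to 2.25 CPM and Birc5 from 0 to 2.30 CPM.

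In B cells, 38 of the 40 genes passed the filter, Bub1 and Kif11 being left out. The mean log2 level was 1.88 to 2.07 in CON (n = 6), 1.97 to 2.31 in SUS (n = 6) and 2.04 to 2.37 in RES mice (n = 5). Between SUS and CON mice, both tools called 0 (0.00568% of all genes by edgeR and 0.137% by DESeq2), with 0 at an unadjusted p under 0.05 by edgeR (1.99% of all genes were higher). Ube2c, Gins2 and Ccnb1 had the smallest p, from 0.0556 before adjustment. Between RES and CON mice, both tools called 0 (0% of all genes by edgeR and 0.0541% by DESeq2), and 2 genes, Top2a and Mki67, were higher at that p, beside 1.8% of all genes. Top2a had a log2 fold change of 0.84 (SE 0.32) and Mki67 one of 0.98 (SE 0.41), neither past the adjusted p, and Stmn1 was next by p (-0.65, SE 0.33). Mki67 stood at 0.864, 4.80, 4.79, 7.76, 4.49 and 5.24 CPM in CON, between 3.35 and 16.3 CPM in SUS and at 9.14, 10.2, 11.7, 6.57 and 8.12 CPM in RES mice, so that RES and CON mice overlapped in 1 library of each. Between SUS and RES mice, both tools called 0 (0% of all genes by either tool), with 0 at an unadjusted p under 0.05. Ube2c, Top2a and Mcm3 had the smallest p. Top2a ranged from 2.68 to 12.7 CPM, Rrm2 from 0.467 to 4.87 CPM, Mcm5 from 30.6 to 69.6 CPM, Pcna from 41.4 to 77.3 CPM, Stmn1 from 3.29 to 10.4 CPM, Ccnb2 from 0 to 2.05 CPM and Birc5 from 0 to 3.11 CPM over the 17 libraries.

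The level of the genes in CON mice differed by cell type and by role. Genes were compared in CPM per kilobase of exon, with the length taken over all annotated exons of a gene. The order of the genes therefore also depends on the annotation. On this scale Pcna was highest in all 4 cell types. It stood at 18.5 ± 1.79 (SD, n = 6) in Ly6Chigh monocytes and 21.5 ± 4.53 (n = 4) in Ly6Clow monocytes. In B cells it stood at 22.3 ± 5.22 (n = 6) and in T cells at 25.8 ± 4.14 (n = 6). The next were Mcm6, Mcm4, Mcm7 and Mcm3 in T cells (17.8 to 15.7), Mcm3, Mcm7, Mcm4 and Mcm5 in B cells (14.8 to 12.1), Mcm3, Tk1, Mcm4 and Mcm5 in Ly6Clow monocytes (9.82 to 7.72), and Tk1, Mki67, Mcm3 and Mcm4 in Ly6Chigh monocytes (6.35 to 4.54). The lowest 5 were mitotic genes for the most part. They were Ccnb1, Bub1, Kif2c, Kif11 and Cdk1 in Ly6Chigh monocytes (0.0952 to 0.149), Kif2c, Kif11, Bub1, Cenpf and Birc5 in Ly6Clow monocytes (0 to 0.0919), Kif11, Cenpf, Cdk1, Bub1 and Cdc6 in B cells (0.00599 to 0.142) and Bub1, Kif11, Gins2, Kif2c and Cenpf in T cells (0.0528 to 0.199).

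**Figure D5:**
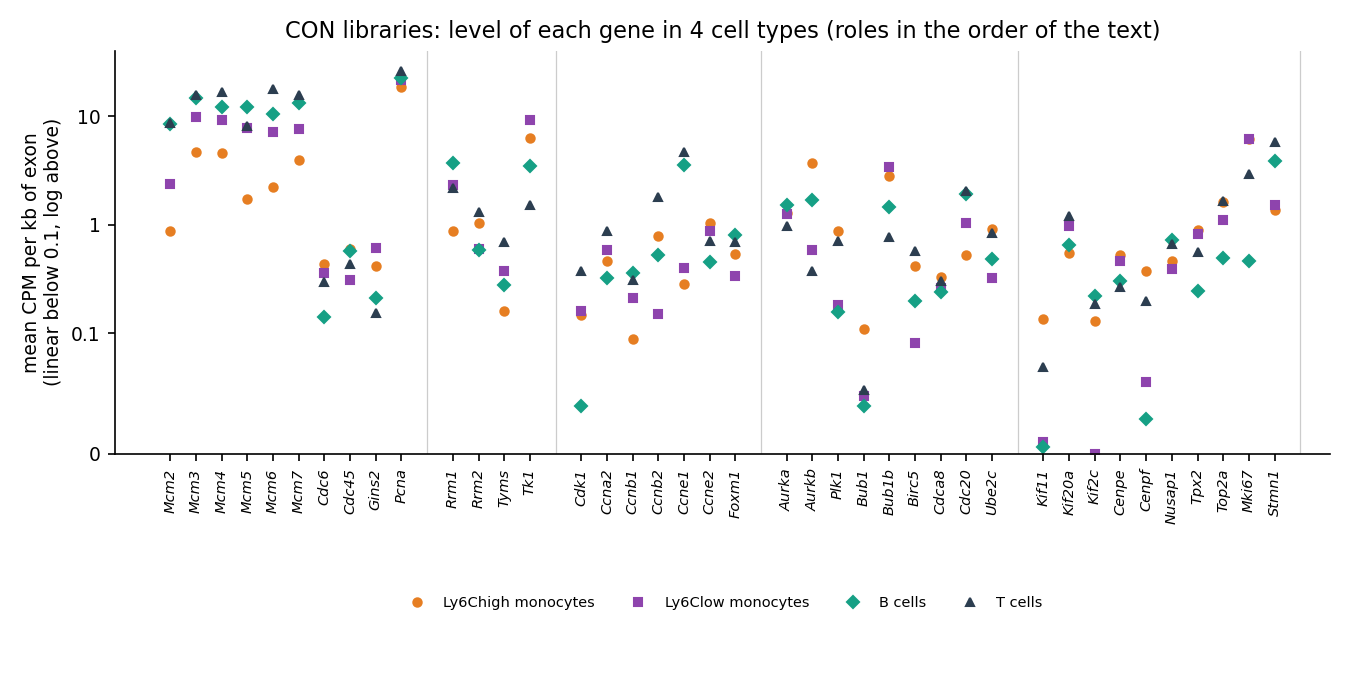
Mean CPM per kilobase of exon of each of the 40 genes in CON libraries of Ly6Chigh monocytes (n = 6), Ly6Clow monocytes (n = 4), B cells (n = 6) and T cells (n = 6), on an axis that is linear below 0.1 and logarithmic above. Mcm genes are lowest in Ly6Chigh monocytes, and Mki67 is lowest in B cells.

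Ly6Chigh monocytes of CON mice had less RNA of most Mcm genes than the other cell types. Against Ly6Clow monocytes, edgeR called 2 of 40 genes higher and 6 lower (11.2% of all genes were called). The 6 were Mcm2, Mcm3, Mcm4, Mcm5, Mcm6 and Rrm1, and Mcm5 was lower by a log2 fold change of -2.16 (SE 0.23, adjusted p = 7.23e-08). Aurkb, the kinase of the chromosomal passenger complex, was higher (2.67, SE 0.79, adjusted p = 0.0165), as was Kif2c, which is at 0 in all 4 CON libraries of Ly6Clow monocytes. Against T cells, 4 were higher and 11 lower (32.8% of all genes), and against B cells 7 were higher and 9 lower (33.1%). All 6 Mcm genes, Rrm1, Ccne1 and Cdc20 were lower in both, and Stmn1 and Tyms were lower against T cells. Mcm2 had the smallest p in both, with log2 fold changes of -3.29 (SE 0.15) and -3.23 (SE 0.15). Mki67 (1.08 against T cells, 3.77 against B cells) and Bub1b (1.90 and 1.02) were higher in both, Tk1 and Aurkb against T cells, and Top2a, Kif11, Cenpf, Plk1 and Tpx2 against B cells. Between T cells and B cells, 4 genes were higher in T cells and 2 lower (20.2% of all genes). Mki67 (2.69, SE 0.35, adjusted p = 2.1e-06), Top2a, Kif11 and Cdk1 were higher, and Tk1 and Aurkb were lower.

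The changes in SUS mice were compared between cell types as interaction terms over the 68 libraries, called at an adjusted p under 0.05. Mcm5 differed between Ly6Chigh and Ly6Clow monocytes by 1.56 on the log2 scale (SE 0.34, adjusted p = 0.0254), the only gene of 40 called, beside 0.363% of all genes. It differed between Ly6Chigh monocytes and B cells by 1.29 (SE 0.33, adjusted p = 0.0115), again 1 of 40, beside 6.18% of all genes. Against T cells, Mki67 was the gene called, with a difference of -2.12 (SE 0.53, adjusted p = 0.0225), beside 3.22% of all genes. When each interaction was fitted with the libraries of the 2 cell types alone, these adjusted p-values were 0.117, 0.0576 and 0.0759.

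For the SUS change in T cells minus that in B cells, edgeR called 0 of 40 (0.0949% of all genes), with 36 positive, a median of 0.67, and 7 higher (3.18% of all genes) and 0 lower at an unadjusted p under 0.05. Minus that in Ly6Clow monocytes, it called 0 of 40 (0.00412% of all genes), with 36 positive, a median of 0.67, and 5 higher (3.51%) and 1 lower (3.88%) at that p. For the RES change in T cells minus that in B cells, it called 0 of 40 (0.0206% of all genes), with 35 positive, a median of 0.44, and 3 higher (3.25%) and 0 lower at that p. DESeq2 was not run for these. A difference of the T cell change from that in B cells or Ly6Clow monocytes was thus not shown for any single gene.

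Of the 40 genes, 12 have an exon overlapped by a gene on the opposite strand and 4 share exonic bases with a gene on the same strand. Cdca8 and Top2a are among them, and Rrm2, Mki67 and Mcm5 are not.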

How the data were processed

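RNA was sequenced from 70 libraries of sorted leukocytes, of which 68 were used. Cells were sorted into Trizol, and libraries were made with a stranded total RNA kit for picogram input. Per the labels and the methods of the study, the authors mapped reads to mm10 with HISAT2 and counted them on Ensembl genes with HTSeq. Strand setting, multi-mapped reads and duplicates are not given in the sources used here. The values deposited are raw counts per gene, and 52489 of 52636 genes were matched to GENCODE M21.

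The tools were edgeR 4.0.16 for the main tests, DESeq2 1.42.0 as an alternative and limma 3.58.1, all under R 4.3.3. Within each cell type, the 3 groups were filtered with filterByExpr, normalised with TMM and fitted with robust quasi-likelihood. P-values were Benjamini-Hochberg adjusted over all genes tested. Calls needed an adjusted p below 0.05 together with a log2 fold change beyond 1 in either direction. Standard errors were obtained from the fold change and the root of its F statistic. CPM were TMM-normalised over the 68 libraries, and 0.5 CPM was added before taking log2. The fits were tested on simulated data.

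The genes whose levels are given in every cell type, per library or as ranges, are Mki67, Top2a, Ccnb2, Birc5, Rrm2, Mcm5, Pcna and Stmn1. Others are named when called by edgeR in the main fit, or when among the 3 smallest p of a contrast that called none. They are also named when among the 5 highest or lowest by CPM per kilobase in CON mice. The genes called by DESeq2 are counted and not named. The members and all lists were chosen with earlier results of these data known. Alternatives were DESeq2, its size factors, no filter, only the groups compared, the adjusted p alone, 3 pseudocounts, marker covariates, abundant genes removed, libraries 52 and 70 kept, and each library left out. The block of library numbers, the removal of libraries 63 and 66, and the T cell interactions were chosen after seeing the data. The labels name no mouse, so p-values measure the spread between libraries, and cell types could not be paired. Counts without molecular identifiers include duplicates, which no error given here covers.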

Additional observations from a re-analysis of the deposited data

Results flagged for a closer look

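In 108 groups (the mean of the 40 genes and 8 single genes in 12 groups), 9 had a highest or lowest library set apart from the rest by Dixon's criterion on the log2 scale, where chance gives about 1 in 20. In Ly6Chigh monocytes of SUS mice, Ccnb2 was lowest in library 5 (0.486 CPM, next 2.78). In Ly6Clow monocytes of RES mice, Pcna was highest in library 23 (69.7 CPM, next 50.9). In B cells of CON mice, Mki67 was lowest in library 35 (0.864 CPM, next 4.49). In B cells of SUS mice, Top2a was lowest in library 51 (3.64 CPM, next 5.28) and Birc5 highest in library 36 (0.921 CPM, next 0.0212). In B cells of RES mice, library 37 was highest for the mean of the 40 genes (2.37, next 2.12) and for Birc5 (3.11 CPM, next 0.261). In T cells, Top2a was highest in library 68 among CON mice (23.1 CPM, next 14.8), and Mcm5 in library 61 among RES mice (56.7 CPM, next 40.7).

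The SUS change differed between cell types by an interaction test for Mcm5 (1.56 for Ly6Chigh minus Ly6Clow monocytes and 1.29 for Ly6Chigh monocytes minus B cells) and for Mki67 (-2.12 for Ly6Chigh monocytes minus T cells). None of the 3 passed when fitted on the libraries of the 2 cell types alone (adjusted p = 0.117, 0.0576 and 0.0759, edgeR). The 1 of 40 genes called compares with 0.363%, 6.18% and 3.22% of all genes.

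Library 52, which was left out, had a mean of 3.55 over the 40 genes, above the highest CON library of B cells, its labelled cell type (2.07). Its marker genes were those of T cells (412.4 CPM of Cd3e and 5.76 CPM of Cd79a). The T cell libraries used ranged from 2.03 in CON to 4.05 in SUS mice, so that 3.55 lay within their range. Library 52 held 122.5 CPM of Mki67 and 18.8 CPM of Rrm2. Library 70, labelled T cells, held the B cell gene Cd79a at 1417 CPM and had a mean of 2.12.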

How the results depend on the processing

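The medians against CON in T cells were positive under every alternative run, in SUS and in RES mice. The SUS vs. RES median in T cells, 0.14, was -0.20 without libraries 63 and 66 and -0.01 without SUS replicate 5. The count of genes called moved. In T cells of SUS mice it was 1, against 5 with DESeq2 and 0 with the red cell covariate, with libraries 52 and 70 kept or without libraries 63 and 66, and it ranged from 1 to 4 when each library was left out. The 4 came without SUS replicate 3, and 2 without SUS replicate 2 or CON replicate 6. The 23 genes higher at an unadjusted p under 0.05 became 11 with the red cell covariate and 7 without libraries 63 and 66, and ranged from 14 to 26 with each library left out. Without libraries 63 and 66 the median was 0.52. In T cells of RES mice, 0 were called, against 3 with DESeq2 and 2 with only the 2 groups or without libraries 63 and 66, and the 15 higher became 8 with the red cell covariate and 9 with libraries 52 and 70 kept. The block of library numbers left the T cell counts of 1, 0, 23 and 15 as they were. With libraries 52 and 70 kept, the T cell fit held library 70, which had the marker genes of B cells (1417 CPM of Cd79a and 0.143 CPM of Cd3e).

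In Ly6Chigh monocytes of SUS mice, 1 was called, against 2 with DESeq2 or the adjusted p alone, 0 with either covariate, and 0 to 2 with each library left out. In RES mice, 0 were called, against 1 with the adjusted p alone and 0 to 1 with each library left out. The granule progenitor covariate gave medians of -0.31 and -0.22. In Ly6Clow monocytes of SUS mice, DESeq2 called 1. In B cells of RES mice, the median was 0.42 with libraries 52 and 70 kept, against 0.06 in the main fit. Library 52, labelled B cells, held 412.4 CPM of the T cell gene Cd3e. Each interaction with Ly6Chigh monocytes called 0 with the 2 cell types alone. The cause of these shifts was not tested, beyond the fewer libraries in some fits. The differences in the mean level moved by less than 1 within-group SD under the pseudocounts and scalings run. That SD was 0.39 in T cells, 0.54 in Ly6Chigh monocytes, 0.15 in Ly6Clow monocytes and 0.12 in B cells. With each library left out, the SUS difference was 0.66 to 0.94 in T cells and 0.16 to 0.45 in Ly6Chigh monocytes. It was -0.03 to 0.09 in Ly6Clow monocytes and 0.03 to 0.10 in B cells. Outside T cells this rule therefore cannot show whether the SUS differences kept their size or sign. No paired analysis was possible because the labels name no mouse and replicate numbers follow accession order. Depth limits Bub1, Kif11 and Kif2c, which were at or near 0 in several groups.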
